A study of Oryza sativa with 20 samples.

Results

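This account follows the Aux/IAA repressors and the auxin response factors (ARF), the paired families that carry the transcriptional response to auxin, through the first hours after pollination of the rice pistil. Members are all genes of the array's annotation whose symbol or synonym is IAA or ARF followed by a number, with ADP-ribosylation factors left out and 1 probe set kept per gene, the one with the highest mean. The naming table holds 51 such genes, 28 Aux/IAA and 23 ARF. Of these 43 have a probe set (26 Aux/IAA and 17 ARF) among the 57381 probe sets of the array, and 42 were bright enough to be tested (25 Aux/IAA and 17 ARF). ARF5, ARF6, ARF8, ARF19, ARF21, ARF25, IAA11 and IAA29 had no probe set in the annotation used, and IAA16 did not pass the filter on low values. Several names are shared in the literature, so each gene is called here by the number of the current scheme: ARF12 has also been called ARF8, ARF23 also ARF1, and IAA13 also IAA1.

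The arrays are 20 one-colour Affymetrix rice arrays of field-grown plants in 7 groups. Dissected tissue came from stigmas 5 min after pollination (n = 2), unpollinated stigmas (n = 3), ovaries 5 min after pollination (n = 3) and unpollinated ovaries (n = 3). Whole pistils, stigma with ovary, were taken at 15-25 min, 40-50 min and 5-7 h after pollination (n = 3 each), stages that the labels name pollen tube growth, fertilization and zygote formation. The labels give no strain, genotype or plant age, state that pollen grains were collected with the pollinated samples, and do not say that replicates came from separate plants, so p-values measure the spread between these samples only. No unpollinated whole pistil was among the samples, so a pistil value is set against both unpollinated tissues.

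Auxin binds receptors of the TIR1/AFB type together with Aux/IAA proteins, which are then degraded. Without auxin, Aux/IAA proteins bind ARF proteins on auxin response elements and, with TOPLESS-type corepressors, keep target genes off. Many Aux/IAA genes are themselves early auxin targets, while ARF genes are more often set by tissue and by small RNAs: miR160 and miR167 each match a group of ARF genes, and the trans-acting small RNA tasiR-ARF another. ARF proteins with a glutamine-rich middle region are called activators, from work in Arabidopsis, and the others repressors.

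All values are relative intensities as deposited, with the 75th percentile of every array at 1. Probe sets differ in brightness for the same amount of RNA, so levels are compared between samples and not between genes. Changes are differences of log2 group means with standard errors (SE), or the same as folds, from limma with 13 residual degrees of freedom, and a gene is called higher or lower at an adjusted p under 0.05 over all 35470 probe sets tested. In bulk tissue, fewer cells of a type and less RNA per cell cannot be told apart.

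Array medians lay between 0.195 and 0.377, the highest in 5 min stigma replicate 2, and arrays of one group correlated at 0.937 to 0.988 over the tested probe sets. Of 5 carpel and ovule markers, MADS13 and MADS21, ovule identity genes, were lower in unpollinated stigmas than in unpollinated ovaries by log2 changes of -3.51 and -4.68, while DL, the carpel gene DROOPING LEAF, was higher by 1.74. Of the pollen markers, EXPB9 and EXPB10, expansins of pollen, were read, and HXK5 was left out because its name matches several genes. Their summed intensity was 63.5 to 67.9 in 5 min stigmas and 2.80 to 4.93 in unpollinated stigmas. It was 8.40 to 19.8 in 5 min ovaries and 0.264 to 0.671 in unpollinated ovaries. In pistils it was 2.60 to 11.1 at 15-25 min, 1.58 to 19.8 at 40-50 min and 10.2 to 13.4 at 5-7 h. Markers of stamens, lodicules and anther walls were read too. The summed intensity of MADS4 and MADS16, genes of stamen and lodicule identity, was 43.1 to 49.5 in unpollinated stigmas and 12.7 to 34.9 in unpollinated ovaries, and MADS4 was called higher in stigmas (log2 1.80). Of 3 tested tapetum and anther wall markers, GAMYB and PTC1 were higher in unpollinated stigmas, with a summed intensity over the 5 listed genes on the array of 2.37 to 3.40 in unpollinated stigmas and 1.77 to 1.99 in unpollinated ovaries. The part of pollen or other floral tissue in the results was not tested.

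Most members were measured in every sample. Of the 42 tested genes, 34 lay above the array median on all 20 arrays and 5 lay on the lower bound set for intensities on at least 1 array. Group means differed at least 2-fold between the highest and the lowest group for 37 genes and at least 4-fold for 11. Unpollinated stigmas held the highest mean of 19 genes (9 Aux/IAA and 10 ARF), 5-7 h pistils that of 11, 5 min stigmas that of 7, unpollinated ovaries that of 4 and 15-25 min pistils that of 1, IAA18. The lowest mean lay in 5 min ovaries for 13 genes and in 5 min stigmas for 9. These counts were not taken over all tested probe sets. The median log2 difference between unpollinated stigmas and unpollinated ovaries over those probe sets was 0.22. IAA4 and IAA25 were called in no comparison.

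**Figure D1:**
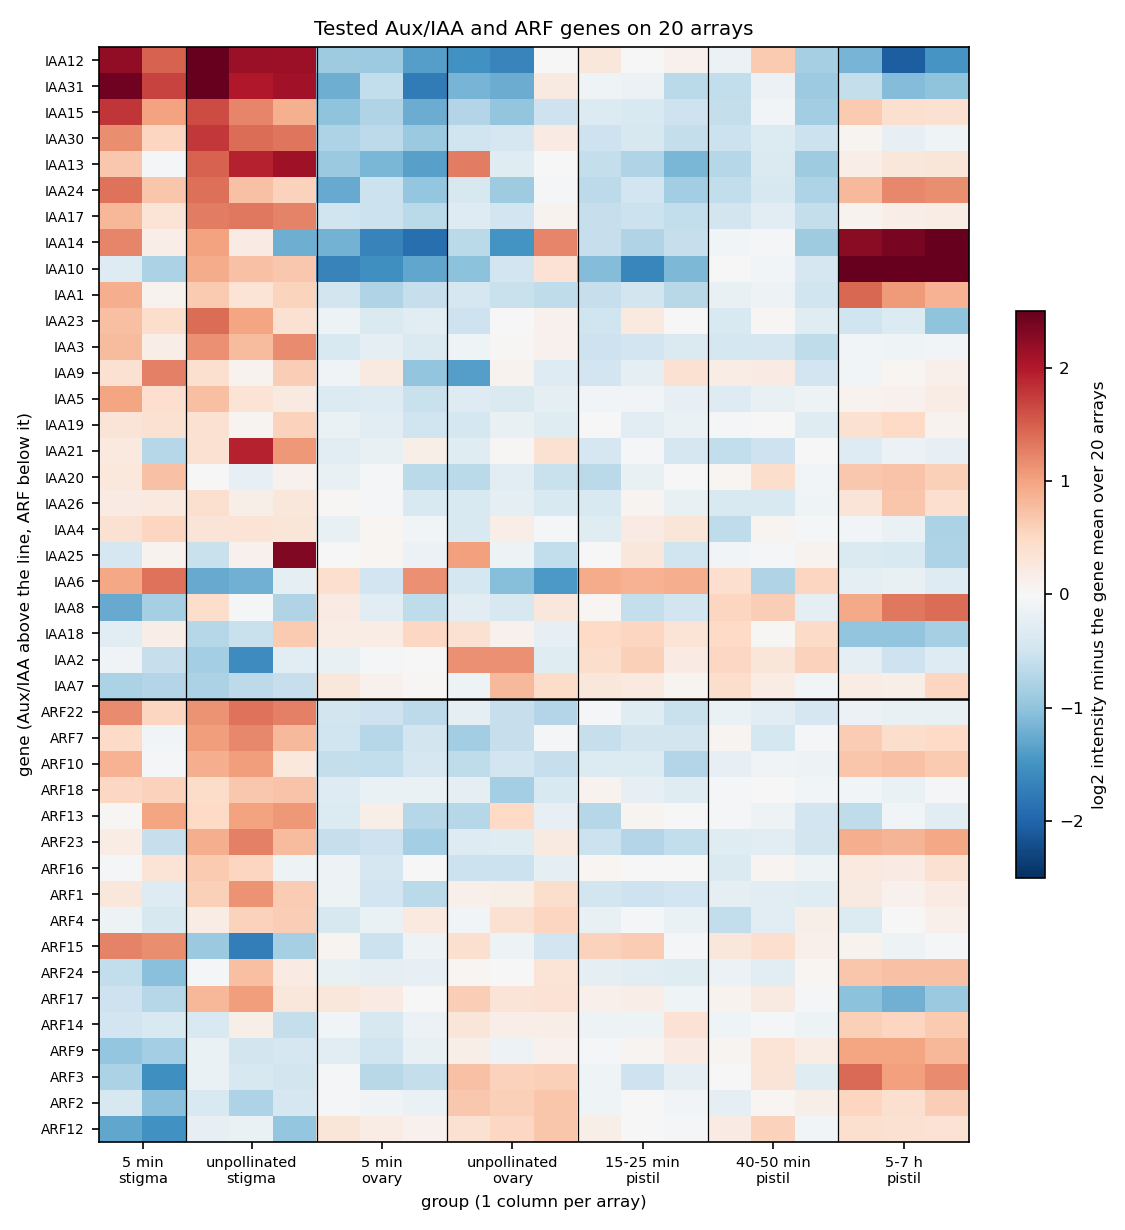
Heat map of the 42 tested genes (rows, Aux/IAA above the line, ARF below it) on the 20 arrays (columns, grouped by sample), coloured by log2 relative intensity minus the gene's mean over all arrays, with the colour scale saturating at its ends. IAA12, IAA31 and IAA15 are red in both stigma groups, and IAA10 and IAA14 are red in 5-7 h pistils.

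The first comparison asked which members differed in the stigma 5 min after pollination from the unpollinated stigma. ARF15 and IAA6 rose and 15 genes fell, most of them ARF genes. Of 42 members, 2 were higher and 15 lower in 5 min stigmas, against 8.61% higher and 13.4% lower of all tested probe sets (22.0% called in either direction). By family 1 of 25 Aux/IAA genes was higher and 6 were lower, and 1 of 17 ARF genes was higher and 9 were lower. The median log2 change was -0.05 for Aux/IAA genes and -0.56 for ARF genes, beside -0.02 for all tested probe sets.

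ARF15, a repressor-type ARF of the tasiR-ARF group, had intensities of 8.83 and 8.37 in 5 min stigmas, against 1.98, 1.14 and 2.11 in unpollinated stigmas. The groups stood far apart, and the change was 5.12-fold (log2 2.36, SE 0.28, adjusted p = 2.45e-05). IAA6, an Aux/IAA gene linked in rice to drought tolerance and tillering, had 1.5 and 1.97 in 5 min stigmas, against 0.320, 0.330 and 0.648 in unpollinated stigmas. Its groups did not overlap either, with a 4.20-fold change (log2 2.07, SE 0.43, adjusted p = 0.00249). Both calls held under every alternative tried for them.

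Among Aux/IAA genes that fell, IAA13 had 14.3 and 8.61 in 5 min stigmas, against 25.0, 33.9 and 38.7 in unpollinated stigmas. It is a repressor of lateral root formation in rice, and here it fell by 1.53 on the log2 scale (SE 0.35, adjusted p = 0.00434) with no overlap. IAA21 had 6.65 and 3.44 in 5 min stigmas, against 7.33, 21.5 and 12 in unpollinated stigmas. It fell by 1.37 (log2, SE 0.34, adjusted p = 0.0085), although the brightest 5 min array and the dimmest unpollinated array lay close together. IAA10, an Aux/IAA protein bound by a capsid protein of rice dwarf virus, had 1.57 and 1.14 in 5 min stigmas, against 3.71, 3.26 and 3.13 in unpollinated stigmas. It fell by 1.33 (log2, SE 0.29, adjusted p = 0.00311), and the groups were well separated. IAA17, IAA30 and IAA3 fell by 0.70, 0.65 and 0.55 on the log2 scale, and the groups overlapped for IAA3.

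Of the 3 activator-type ARF genes tested, 2 fell, and both belong to the miR167 group. ARF17 had 6.32 and 5.54 in 5 min stigmas, against 16.1, 18.6 and 11.0 in unpollinated stigmas, and fell by 1.33 (log2, SE 0.19, adjusted p = 0.00014). ARF12, which acts in root elongation in rice, had 5.72 and 4.91 in 5 min stigmas, against 12.2, 12.5 and 7.21 in unpollinated stigmas, and fell by 0.96 (log2, SE 0.21, adjusted p = 0.00375). Neither gene overlapped between the groups. ARF16, the remaining activator-type gene, was not called. Of 14 repressor-type genes ARF15 was higher and 7 were lower. These included ARF23 and ARF24, whose proteins pair with each other in rice and act on actin organisation. ARF23 had 13.9 and 8.10 in 5 min stigmas, against 22.6, 29.2 and 21.1 in unpollinated stigmas (log2 change -1.18), and ARF24 had 5.92 and 4.38, against 8.84, 15.2 and 10.5 (log2 change -1.14). ARF3, ARF7, ARF1, ARF4 and ARF9 fell by 0.82, 0.82, 0.81, 0.72 and 0.56 on the log2 scale. None of the 3 measured genes of the miR160 group was called, with a median log2 change of -0.33.

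Other markers moved in the same arrays: MADS4, of the stamen and lodicule list, averaged 8.81 ± 2.32 in 5 min stigmas (SD, n = 2) and 19.6 ± 1.85 in unpollinated stigmas (SD, n = 3), and fell by 1.17 (log2, SE 0.16, adjusted p = 0.000116), while MADS16 was not called. Of the 5 carpel and ovule markers MADS58 fell and MADS21 rose, and of 3 tapetum and anther wall markers none was called. Their part in the falls was not tested.

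With only 2 arrays of 5 min stigmas, the count of falls was less secure than the 2 rises: without 5 min stigma replicate 2 the calls numbered 5, 2 higher and 3 lower, and with a fit of only the stigma arrays 3, 2 higher and 1 lower. For these fits the share over all tested probe sets was not taken. Scaled on probe sets bright on every array, the comparison gave 3 higher and 8 lower members, beside 11.8% higher and 5.16% lower of all tested probe sets.

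In the ovary at 5 min, fewer members differed from unpollinated ovaries, and the genes that fell were largely those that fell in the stigma. Of 42 members 1 was higher and 5 were lower, against 3.88% higher and 2.02% lower of all tested probe sets (5.90% in either direction). The median log2 change of the members was -0.20, beside -0.06 for all tested probe sets. IAA13, IAA10, ARF3 and ARF1 were lower in both tissues, which is 4 of the 15 genes lower in stigmas and 4 of the 5 lower in ovaries. These comparisons use different arrays.

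IAA13 had 4.74, 4.05 and 3.50 in 5 min ovaries, against 21.8, 7.27 and 8.95 in unpollinated ovaries. It fell by 1.47 (log2, SE 0.31, adjusted p = 0.00924), with 1 unpollinated array far above the other two. IAA10 had 0.618, 0.678 and 0.797 in 5 min ovaries, against 0.966, 1.42 and 2.53 in unpollinated ovaries, without overlap, and fell by 1.12 (log2, SE 0.26, adjusted p = 0.0145). Among ARF genes, ARF3 of the tasiR-ARF group had 1.46, 0.932 and 0.999 in 5 min ovaries, against 2.49, 2.26 and 2.30 in unpollinated ovaries. It fell by 1.08 (log2, SE 0.21, adjusted p = 0.00549), and of these calls it alone held under every alternative. ARF2, of the same small-RNA group, had 1.70, 1.65 and 1.56 in 5 min ovaries, against 2.81, 2.66 and 2.84 in unpollinated ovaries, and fell by 0.76 (log2, SE 0.16, adjusted p = 0.00906). A second, dimmer probe set of ARF2 showed no called change (log2 -0.65, adjusted p = 0.132). ARF1 fell by 0.66 on the log2 scale (adjusted p = 0.0339).

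IAA6 was the single gene that rose in ovaries. It had 1.03, 0.551 and 1.69 in 5 min ovaries, against 0.566, 0.368 and 0.282 in unpollinated ovaries. The groups overlapped, and the change of 1.34 (log2, SE 0.38, adjusted p = 0.0469) was lost under 9 of 17 alternatives. Without 5 min ovary replicate 3 the members called in ovaries numbered 3, all lower, and the share over all tested probe sets was not taken.

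**Figure D2:**
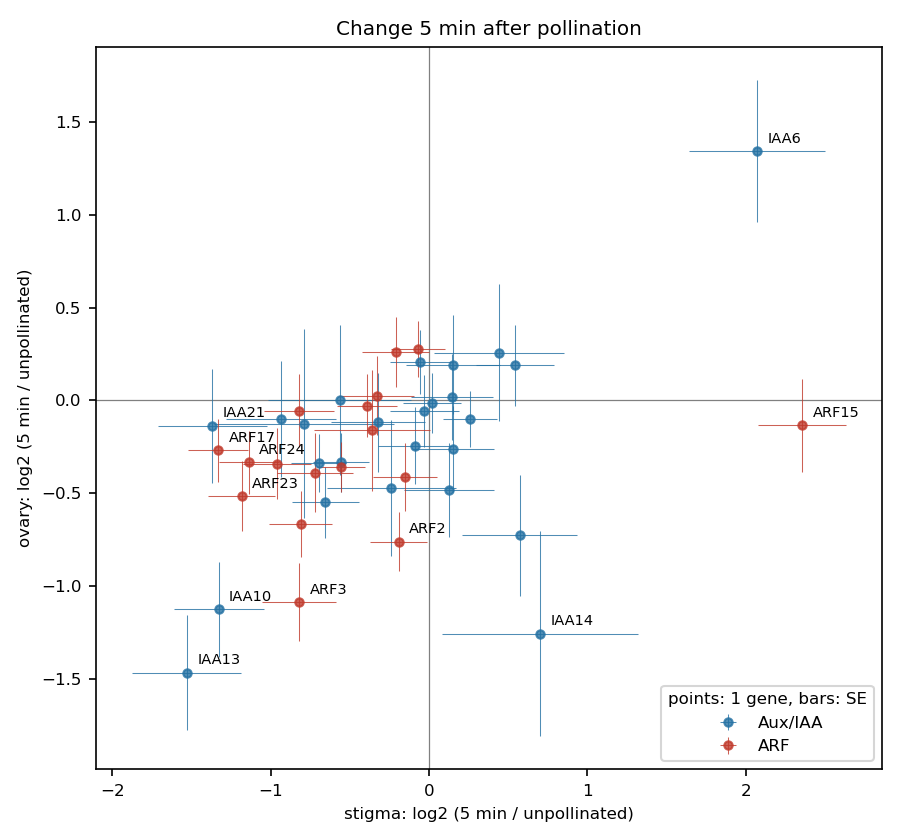
Log2 change 5 min after pollination in stigmas (horizontal axis) and in ovaries (vertical axis) for the 42 tested genes, with standard errors as bars and families by colour. IAA6 lies to the upper right, IAA13 and IAA10 to the lower left, and ARF15 stands at 2.36 in stigmas and near 0 in ovaries.

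Whether a gene's change at 5 min differed between stigma and ovary was tested directly, as the stigma change minus the ovary change. Of 42 members, 1 was higher and 1 lower, against 0.897% and 0.476% of all tested probe sets (1.37% in either direction). ARF15 changed by 2.49 more in stigmas than in ovaries (log2, SE 0.37, adjusted p = 0.00271). Its ovary arrays read 3.93, 2.58 and 3.43 at 5 min and 4.96, 3.45 and 2.69 before pollination, and these groups overlapped. The difference held under all 22 alternatives. For ARF17 the stigma change minus the ovary change was -1.06 (log2, SE 0.26, adjusted p = 0.047), with ovary intensities of 11.0, 10.4 and 9.07 at 5 min and 13.8, 11.3 and 11.6 before pollination. That call was lost under 15 of 22 alternatives, among them leaving out either 5 min stigma array, any 5 min ovary array, unpollinated stigma replicate 1 or 2, or unpollinated ovary replicate 2 or 3.

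EXPB9 rose by 4.24 in stigmas and by 5.21 in ovaries on the log2 scale. Since pollen was collected with the pollinated samples, a change within pistil cells and RNA brought in by pollen cannot be told apart for ARF15 and IAA6. The part of pollen RNA in the falls at 5 min, and in changes of other auxin genes given below, was not tested either.

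**Figure D3:**
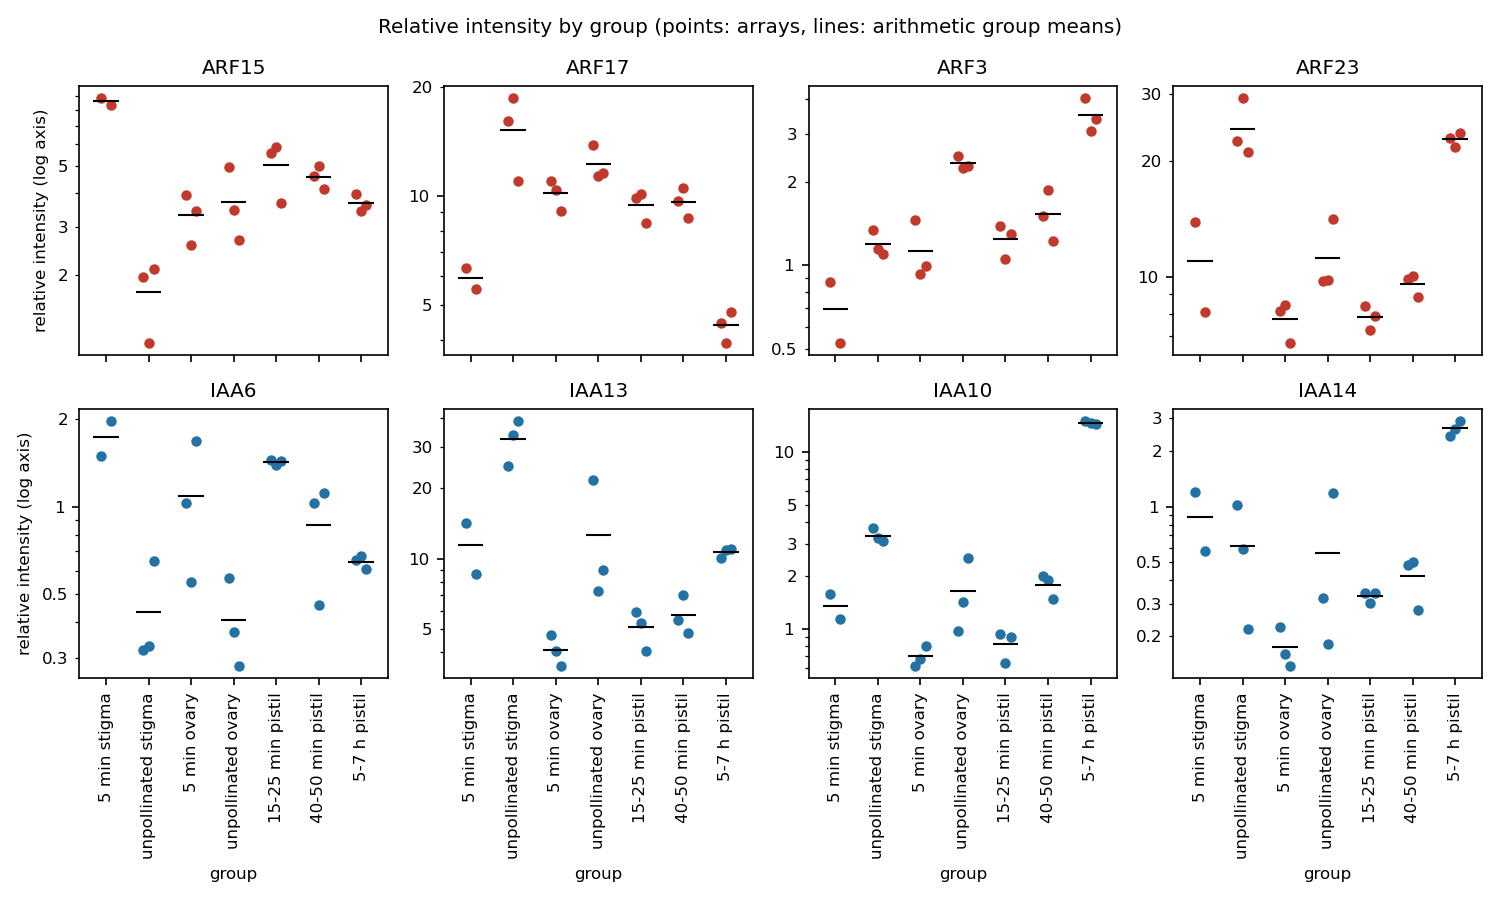
Relative intensity on every array (points, log axes) by group for 4 ARF and 4 Aux/IAA genes, with arithmetic group means as lines. ARF15 peaks in 5 min stigmas, ARF17 is lowest in 5-7 h pistils, and IAA10 and IAA14 are highest in 5-7 h pistils.

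Before pollination, most members differed between the tissues, and most of those that differed were higher in the stigma. Of 42 members 23 were higher and 8 lower in unpollinated stigmas than in unpollinated ovaries, against 19.7% higher and 13.1% lower of all tested probe sets (32.8% in either direction). Among Aux/IAA genes 15 were higher and 2 lower, with a median log2 difference of 0.91. Among ARF genes 8 were higher and 6 lower, with a median of 0.29, and the median over all tested probe sets was 0.22.

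IAA12 had 14.3, 8.32 and 8.22 in unpollinated stigmas, against 0.650, 0.594 and 1.85 in unpollinated ovaries. This 11.1-fold difference was the widest of the set (log2 3.47, SE 0.40, adjusted p = 3.29e-06). IAA31 had 14.0, 8.0 and 8.61 in unpollinated stigmas, against 0.897, 0.856 and 2.35 in unpollinated ovaries, an 8.12-fold difference (log2 3.02, SE 0.37, adjusted p = 5.49e-06). For both genes ovary replicate 3 read above the other ovary arrays, yet far below every stigma array. A second, dimmer probe set of IAA31 showed no called difference (log2 0.19, adjusted p = 0.504). IAA30, the neighbour of IAA31 on chromosome 12, was also higher, by 1.73 (log2, SE 0.19, adjusted p = 1.69e-06), with 57.5, 44.6 and 42.8 in unpollinated stigmas and 12, 12.7 and 19.5 in unpollinated ovaries. IAA15 had 27.8, 21.0 and 16.6 in unpollinated stigmas, against 5.40, 4.53 and 6.28 in unpollinated ovaries, a 3.97-fold difference. IAA2 went the other way: it had 0.718, 0.438 and 1.07 in unpollinated stigmas, against 2.87, 2.87 and 1.05 in unpollinated ovaries. It was lower by a log2 difference of -1.56 (SE 0.33, adjusted p = 0.00133), with ovary replicate 3 inside the stigma range.

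Of the ARF genes 3 small-RNA groups were read apart, with no test between them. All 3 measured genes of the miR160 group were higher in unpollinated stigmas: ARF22 by 1.76, ARF10 by 1.31 and ARF18 by 1.10 on the log2 scale. ARF22 had 16.5, 19.6 and 18.3 in unpollinated stigmas, against 6.47, 5.08 and 4.57 in unpollinated ovaries. All 4 genes of the tasiR-ARF group, ARF2, ARF15, ARF3 and ARF14, were lower, with log2 differences of -1.18, -1.09, -0.98 and -0.49. ARF2 had 1.36, 1.03 and 1.32 in unpollinated stigmas, against 2.81, 2.66 and 2.84 in unpollinated ovaries, with a wide gap between groups (adjusted p = 1.92e-05). ARF14 lost its call under 7 of 16 alternatives and ARF15 under 1, the fit of only these groups, while the other genes of both small-RNA groups kept theirs. In the miR167 group ARF12 was lower (log2 -0.98) and ARF17 was not called. Of the 8 ARF genes outside these groups ARF1, ARF7, ARF13, ARF16 and ARF23 were higher, ARF9 was lower, and ARF4 and ARF24 were not called. A second probe set of ARF4 was called higher in unpollinated stigmas (log2 0.41, adjusted p = 0.0327). That probe set was also called lower in 5 min ovaries (log2 -0.51). Against both unpollinated tissues it was called lower in 40-50 min (log2 -0.46) and 5-7 h pistils (log2 -0.43).

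The same tissue contrast at 5 min used other arrays. Of 42 members 21 were higher and 7 lower in 5 min stigmas than in 5 min ovaries, against 20.7% higher and 14.3% lower of all tested probe sets (35.0% in either direction). The 17 genes higher in stigma in both contrasts are 17 of 23 before pollination and 17 of 21 at 5 min, and the 5 lower in both are ARF12, ARF2, ARF3, ARF9 and IAA7. The second probe set of ARF2 was not called at 5 min (log2 -0.43, adjusted p = 0.219). Of the 23 genes first called higher, 22 kept their sign, called or not, and IAA21 did not. Of the 8 first called lower, 7 kept their sign and ARF15 did not.

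IAA31 had 10.8 and 6.5 in 5 min stigmas, against 0.866, 1.32 and 0.595 in 5 min ovaries (log2 3.25, SE 0.41, adjusted p = 1.67e-05). IAA12 had 8.66 and 5.20 in 5 min stigmas, against 1.0, 0.999 and 0.719 in 5 min ovaries (log2 2.91, SE 0.45, adjusted p = 0.000119). IAA15 had 30.9 and 18.1 in 5 min stigmas, against 4.44, 5.32 and 3.77 in 5 min ovaries (log2 2.40, SE 0.26, adjusted p = 4.07e-06). Every 5 min stigma array read above every 5 min ovary array for these 3 genes. ARF15 was lower in stigmas before pollination and higher, by 1.40 (log2, SE 0.28, adjusted p = 0.00105), at 5 min. ARF12 had 5.72 and 4.91 in 5 min stigmas, against 17.3, 15.9 and 15.2 in 5 min ovaries, the largest difference towards ovaries (log2 -1.60, SE 0.21, adjusted p = 2.72e-05). IAA7 was lower by a log2 difference of -0.90, with 0.0621 and 0.133 in 5 min stigmas, against 0.269, 0.240 and 0.225 in 5 min ovaries, and 1 stigma array lay under the lower bound. ARF17 was lower by a log2 difference of -0.78, and its arrays are those given for the change at 5 min.

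Centring each array on its own median left 15 higher and 8 lower members before pollination (7.47% and 18.3% of all tested probe sets), and 9 higher and 8 lower at 5 min (7.16% and 21.7%). IAA12, IAA15, IAA30, IAA24, IAA17 and ARF22, higher in stigmas, and ARF12, lower in stigmas, kept their calls in both contrasts under every alternative tried. IAA31 kept its calls under all but the choice of its second probe set.

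**Figure D4:**
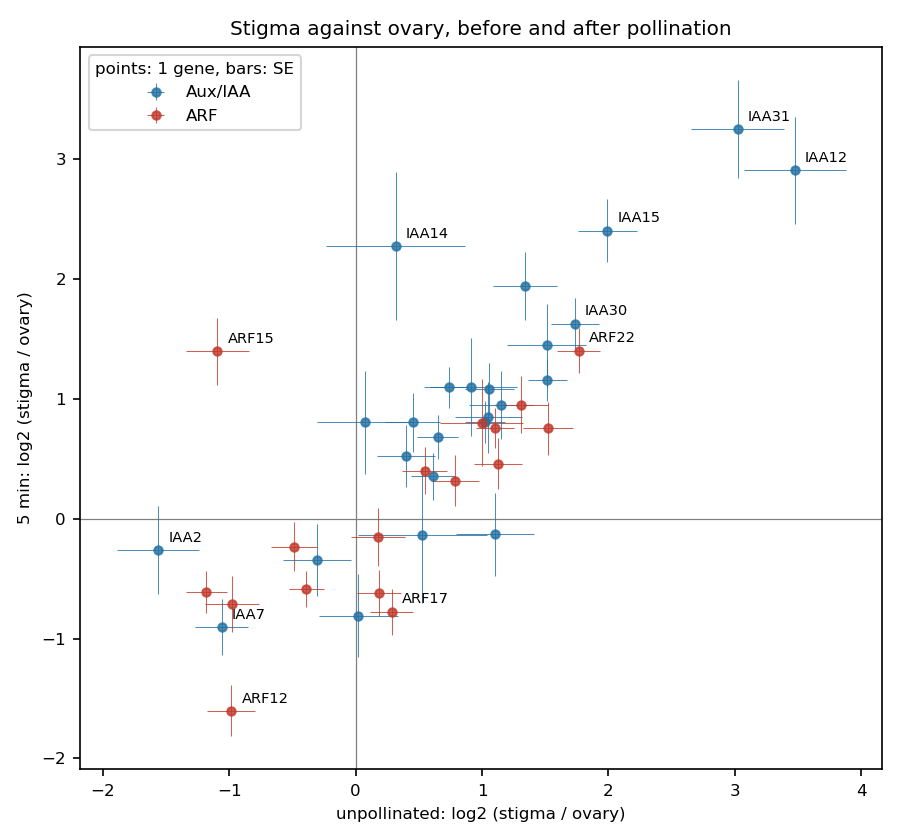
Log2 difference between stigma and ovary before pollination (horizontal axis) and 5 min after it (vertical axis) for the 42 tested genes, with standard errors as bars. IAA12, IAA31 and IAA15 lie at the upper right, ARF12 at the lower left, and ARF15 alone among called genes lies at the upper left.

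Whole pistils mix both tissues, so a gene was called only where the pistil differed from unpollinated stigmas and from unpollinated ovaries in the same direction. The smaller of the 2 changes and the larger adjusted p are given. At 15-25 min 1 member was higher and 3 were lower, against 4.02% higher and 1.98% lower of all tested probe sets. The means of 20 members lay between those of the unpollinated tissues, and the share over all tested probe sets was not taken.

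IAA6 had 1.45, 1.39 and 1.43 in 15-25 min pistils, above every unpollinated array, the highest of which read 0.648 in stigmas and 0.566 in ovaries. It was 3.48-fold higher (log2 1.80, SE 0.38, adjusted p = 0.00342), a call that held under all 20 alternatives. IAA13 had 5.91, 5.34 and 4.06 in 15-25 min pistils, below the lowest unpollinated stigma at 25.0 and the lowest unpollinated ovary at 7.27 (log2 -1.16, SE 0.31, adjusted p = 0.0172). IAA10 had 0.932, 0.638 and 0.905 in 15-25 min pistils, just below the lowest unpollinated ovary at 0.966 (log2 -0.90, SE 0.26, adjusted p = 0.024). ARF1 had 2.18, 2.09 and 2.15 in 15-25 min pistils, against at least 3.27 on every unpollinated array (log2 -0.73, SE 0.18, adjusted p = 0.01). All 4 genes had been called in the same direction in both tissues at 5 min, and all comparisons share the unpollinated arrays. Without unpollinated ovary replicate 3 the calls numbered 2, and the share over all tested probe sets was not taken.

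At 40-50 min no member was higher and 2 were lower, against 2.52% higher and 1.45% lower of all tested probe sets (3.97% in either direction). IAA13 had 5.49, 7.01 and 4.83 in 40-50 min pistils (log2 -0.98, SE 0.31, adjusted p = 0.0498), and IAA3 had 32.1, 32.6 and 28.1 (log2 -0.51, SE 0.16, adjusted p = 0.0451). The unpollinated arrays of IAA3 read 96.2, 75.1 and 98.8 in stigmas and 40.5, 44.3 and 47.3 in ovaries. These calls were lost under 10 and 11 of 20 alternatives. Leaving out unpollinated ovary replicate 1, unpollinated ovary replicate 3 or 40-50 min pistil replicate 1 left 0 calls, and without unpollinated ovary replicate 2 only IAA13 was called. Both genes lost their calls without 40-50 min replicate 2, where IAA6 was called higher (log2 1.39), and without 40-50 min replicate 3, where ARF4 was called lower (log2 -0.73). IAA6 had 1.03, 0.457 and 1.11 at 40-50 min and was not called.

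Between 40-50 min and 15-25 min pistils limma called no member and 0.00% of the 35470 probe sets. At an unadjusted p under 0.05 there were 2 of 42 members and 1033 probe sets (2.91%).

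By 5-7 h 5 of 25 tested Aux/IAA genes stood above their level in either unpollinated tissue, and 1 stood below it. In 5-7 h pistils 6 members were higher and 2 lower than in both unpollinated tissues, against 8.61% higher and 7.41% lower of all tested probe sets (16.0% in either direction). The share of members called, 19.0%, was close to that of all tested probe sets. The median log2 change was -0.07 for members and -0.06 for all tested probe sets. IAA10 had 14.9, 14.6 and 14.4 in 5-7 h pistils, while no unpollinated array exceeded 3.71. It was 4.36-fold higher (log2 2.13, SE 0.26, adjusted p = 2.95e-06). IAA14 had 2.42, 2.64 and 2.89 in 5-7 h pistils, against 1.02, 0.590 and 0.219 in unpollinated stigmas and 0.320, 0.180 and 1.18 in unpollinated ovaries (log2 2.37, SE 0.55, adjusted p = 0.00192). Its unpollinated arrays spread widely, but none reached the pistil arrays. IAA8 had 1.3, 1.68 and 1.78 in 5-7 h pistils, against 0.918, 0.658 and 0.404 in unpollinated stigmas and 0.559, 0.509 and 0.820 in unpollinated ovaries (log2 1.33, SE 0.31, adjusted p = 0.00342). ARF9, IAA20 and IAA1 were higher by 0.90, 0.70 and 0.60 on the log2 scale.

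ARF17 and IAA18 were the genes lower than both tissues at 5-7 h. ARF17 had 4.46, 3.93 and 4.77 in 5-7 h pistils, below its lowest unpollinated array at 11.0 (log2 -1.48, SE 0.17, adjusted p = 5.49e-06). IAA18 had 1.67, 1.68 and 1.86 in 5-7 h pistils, against 2.03, 2.24 and 5.24 in unpollinated stigmas and 4.32, 3.60 and 2.89 in unpollinated ovaries (log2 -0.73, SE 0.27, adjusted p = 0.0297). The groups did not overlap, but the call of IAA18 was lost under 8 of 20 alternatives. IAA10, IAA14, IAA8, ARF9 and ARF17 held under every alternative tried.

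The step from 40-50 min to 5-7 h compares whole pistils with whole pistils. Of 42 members 16 were higher and 3 lower in 5-7 h pistils than in 40-50 min pistils, against 11.2% higher and 6.79% lower of all tested probe sets (18.0% in either direction). The median log2 change was 0.41 for the members and -0.03 for all tested probe sets. Among Aux/IAA genes 8 were higher and 2 lower. Among ARF genes 8 were higher, all of them among the 14 tested genes of the repressor type. Of only 3 tested genes of the activator type 1 was lower, and the types were not compared by a test.

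IAA10 had 14.9, 14.6 and 14.4 in 5-7 h pistils, against 1.98, 1.88 and 1.47 in 40-50 min pistils. The arrays within each stage agreed closely, and the change was 8.31-fold (log2 3.05, SE 0.26, adjusted p = 1.23e-06). IAA14 had 2.42, 2.64 and 2.89 in 5-7 h pistils, against 0.486, 0.500 and 0.276 in 40-50 min pistils, a 6.5-fold change (log2 2.70, SE 0.55, adjusted p = 0.00234). IAA24 had 3.15, 4.13 and 4.02 in 5-7 h pistils, against 1.17, 1.37 and 1.06 in 40-50 min pistils, a 3.14-fold change (log2 1.65, SE 0.25, adjusted p = 0.000258). IAA1, IAA15, IAA8 and IAA17 rose by 1.40, 0.98, 0.92 and 0.58 on the log2 scale. The call of IAA8 was lost under 9 of 16 alternatives and that of IAA17 under 5 of 16. IAA26 rose at least 1.71-fold, since 2 of its 3 arrays at 40-50 min lay at the lower bound of intensity. With that bound at the 40th percentile of the table its change was 0.21 (log2) and was not called (adjusted p = 0.145).

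The ARF genes that rose were ARF23, ARF3, ARF24, ARF10, ARF9, ARF14, ARF7 and ARF2, by 1.25, 1.2, 0.85, 0.84, 0.75, 0.69, 0.65 and 0.53 on the log2 scale. ARF23 had 22.9, 21.8 and 23.6 in 5-7 h pistils, against 9.84, 10.1 and 8.85 in 40-50 min pistils. ARF24, its partner, had 14.7, 14.9 and 15.1 in 5-7 h pistils, against 8.11, 7.45 and 9.31 in 40-50 min pistils. Both had fallen in the stigma at 5 min. ARF3 had 4.04, 3.07 and 3.40 in 5-7 h pistils, against 1.51, 1.88 and 1.23 in 40-50 min pistils. Of the tasiR-ARF group 3 of 4 rose, and ARF15, with 3.96, 3.42 and 3.62 in 5-7 h pistils, against 4.60, 5.00 and 4.12 in 40-50 min pistils, was not called. The calls of ARF7 and ARF2 were each lost under 5 of 17 alternatives.

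Among the genes that fell, IAA12 had 0.835, 0.448 and 0.673 in 5-7 h pistils, against 1.68, 2.93 and 1.06 in 40-50 min pistils (log2 -1.46, SE 0.40, adjusted p = 0.017). Its groups did not overlap, but its 40-50 min arrays spread widely, and the call was lost without 40-50 min replicate 2 or without 5-7 h replicate 2. IAA18 had 1.67, 1.68 and 1.86 in 5-7 h pistils, against 4.68, 3.38 and 4.60 in 40-50 min pistils (log2 -1.27, SE 0.27, adjusted p = 0.00286). ARF17 had 4.46, 3.93 and 4.77 in 5-7 h pistils, against 9.65, 10.5 and 8.69 in 40-50 min pistils (log2 -1.13, SE 0.17, adjusted p = 0.000222). Both were clearly separated between stages. ARF12, of the same miR167 group as ARF17, had 18.5, 18.2 and 18.1 in 5-7 h pistils, against 16.2, 21.0 and 13.5 in 40-50 min pistils, and was not called.

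Of the marker lists, 1 gene was called over these hours. MADS3, of the carpel and ovule list, fell to 2.52 ± 0.161 in 5-7 h pistils, against 4.67 ± 1.15 in 40-50 min pistils (SD, n = 3 each; log2 -0.86, SE 0.22, adjusted p = 0.0103). MADS29, a nucellus gene, averaged 7.81 ± 0.434 in 5-7 h pistils and 4.05 ± 0.859 in 40-50 min pistils (SD, n = 3 each) with no overlap, but was not called (log2 0.97, adjusted p = 0.198), and NF-YB1, the endosperm gene beside it on the list, was not called either. MADS16 averaged 6.37 ± 0.19 in 5-7 h pistils and 8.59 ± 1.53 in 40-50 min pistils (SD, n = 3 each) and was not called. Against both unpollinated tissues, 5-7 h pistils were lower in MADS3 (log2 -0.82), MADS16 (log2 -1.28) and MADS4 (log2 -0.48) and higher in MADS29 (log2 1.41). Summed pollen markers overlapped between 5-7 h and 40-50 min pistils. The part of these tissues in the changes was not tested.

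**Figure D5:**
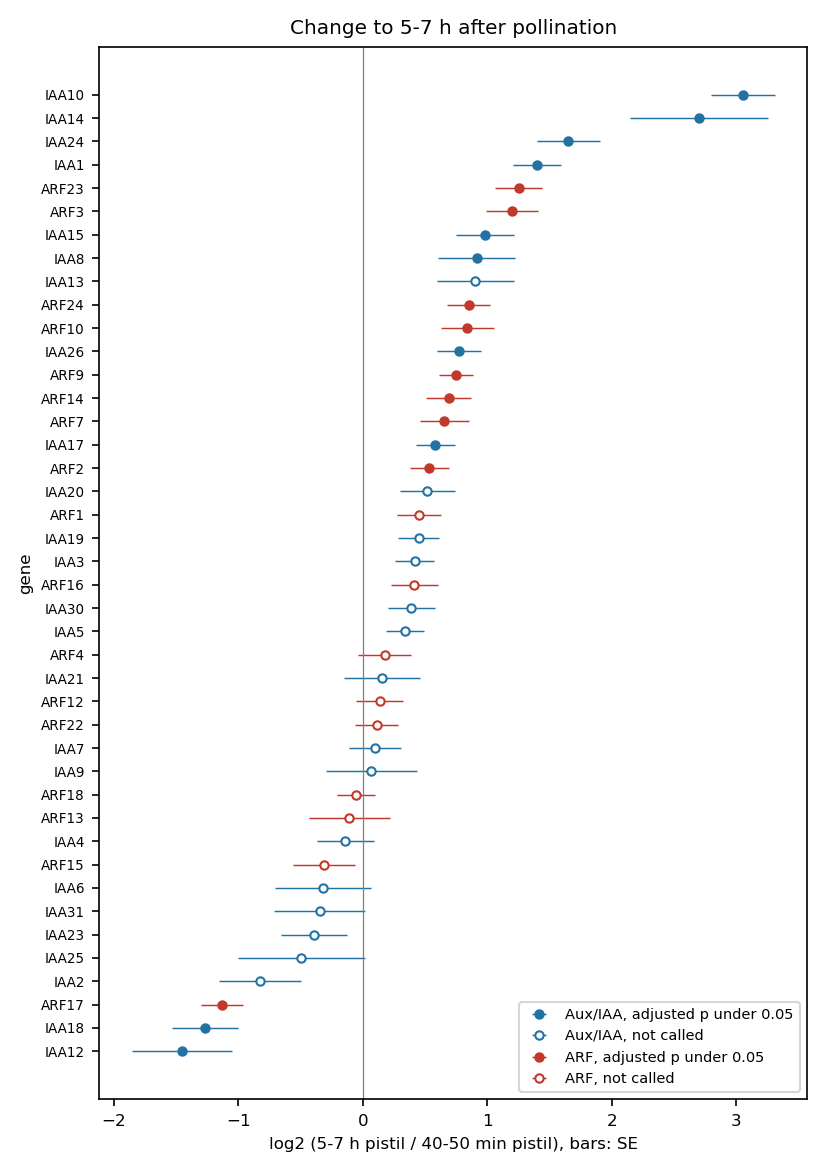
Log2 change between 5-7 h and 40-50 min pistils for the 42 tested genes, ordered by size, with standard errors as bars, filled points where the adjusted p was under 0.05 and families by colour. IAA10 and IAA14 head the list, and IAA12, IAA18 and ARF17 close it.

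Other auxin genes of the array, from lists of named genes, were read beside the members. No receptor gene of the TIR1/AFB type was matched by name. Of 3 corepressor genes, 1 was higher and 1 lower in stigma than in ovary before pollination, beside 19.7% and 13.1% of all tested probe sets. At 5 min none was higher and 2 were lower, beside 20.7% and 14.3%. ASP1, a TOPLESS-related gene of rice inflorescence development, was lower by log2 differences of -3.89 before pollination and -3.03 at 5 min. It averaged 0.441 ± 0.111 in unpollinated stigmas and 6.70 ± 2.62 in unpollinated ovaries (SD, n = 3 each). TPR1 was the gene higher before pollination, with 12.6 ± 0.243 in unpollinated stigmas and 7.49 ± 0.355 in unpollinated ovaries (SD, n = 3 each). The remaining corepressor gene, TPR3, fell by 0.63 on the log2 scale in 5 min stigmas. There 1 of the 3 was called, beside 22.0% of all tested probe sets.

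Of 9 tested genes for conjugation and inactivation of auxin, 2 were higher and 1 lower in 5 min stigmas (22.0% of all tested probe sets called), and 1 was higher in 5 min ovaries (5.90% called). GH3-2, which joins auxin to amino acids, rose in both tissues at 5 min, by 2.17 (log2, SE 0.55) in stigmas and 3.75 (SE 0.49) in ovaries. It was also above both unpollinated tissues in pistils at 15-25 min, 40-50 min and 5-7 h, by 1.78, 1.93 and 2.95 on the log2 scale, and averaged 14.5 ± 0.978 at 5-7 h (SD, n = 3). GH3-1 fell in 5 min stigmas, to 1.38 ± 0.467 (SD, n = 2), against 8.13 ± 4.22 in unpollinated stigmas (SD, n = 3). DAO, a dioxygenase that oxidises auxin, rose with the late Aux/IAA genes: it averaged 7.74 ± 1.67 in 5-7 h pistils and 1.15 ± 0.512 in 40-50 min pistils (SD, n = 3 each), a 7.20-fold change (log2 2.85, SE 0.43, adjusted p = 0.000238).

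Both synthesis genes were higher in stigma than in ovary, before pollination and at 5 min, where 19.7% and 20.7% of all tested probe sets were higher. From 40-50 min to 5-7 h 1 of them rose, beside 11.2% of all tested probe sets. FIB, a tryptophan aminotransferase of the main auxin pathway, averaged 2.80 ± 0.578 in 5-7 h pistils and 0.437 ± 0.184 in 40-50 min pistils (SD, n = 3 each), a 6.73-fold change (log2 2.75, SE 0.30, adjusted p = 1.46e-05). Of 3 tested transport genes, PIN10A, an auxin efflux carrier, was lower in 5 min stigmas by a log2 change of -1.26 and lower than both unpollinated tissues at each pistil stage. It averaged 4.31 ± 0.0612 at 15-25 min, 3.34 ± 0.27 at 40-50 min and 1.70 ± 0.155 at 5-7 h, against 20.5 ± 3.22 in unpollinated stigmas and 7.55 ± 0.846 in unpollinated ovaries (SD, n = 3 each). SAUR39, an early auxin target, was at least 2.24-fold higher at 5-7 h than in both unpollinated tissues (adjusted p = 0.00157). This is a lower bound, because 1 of 3 unpollinated stigma arrays and 2 of 3 unpollinated ovary arrays lay under the lower bound of intensity. The root and leaf genes RAA1 and LBD6 were lower in stigma than in ovary in both contrasts, and RAA1 fell between 40-50 min and 5-7 h (log2 -1.96, SE 0.49, adjusted p = 0.00889).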

How the data were processed

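The values are relative intensities as deposited by the authors, 1 linear intensity per probe set and array, with GCOS 1.3 named in the submitters' processing notes. The 75th percentile of every array is 1, a scale whose program no source names. Each array took 500 ng of RNA, per the labels. All 20 columns matched a sample and all arrays were used. Genes were named through the platform annotation and RefSeq synonyms. A lower bound of 0.128, which is the 20th percentile over the table, was set before taking log2. Control probe sets (187) did not enter, and a probe set was tested if 2 or more arrays had it over their median. The number of arrays limits the precision.

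A model of group means (limma 3.58.1, R 4.3.3) with a variance trend gave the moderated tests, with Benjamini-Hochberg adjustment over 35470 probe sets within each of 10 comparisons. The members and lists were chosen with earlier results of these data known. By rule, the 3 largest rises and falls of a comparison are described on every array and other called members by their change. In the contrasts between stigma and ovary, many other called members were only counted or named, without their change. IAA10, ARF23, ARF24, ARF12, ARF3 and others were also given on every array because they recur, a choice made after their values were seen. From the other auxin lists the largest rise and fall are named, though not for every comparison. Types and small-RNA groups of ARF genes follow background knowledge. Names that match several genes (TIP2, HXK5, MADS2) and the LAX PANICLE genes were left out. Protein and promoter sequences were not used here. On simulated data with 100 probe sets changed per size, 29 of the 2-fold and 89 of the 4-fold changes were recovered for 5 min stigmas, and 54 and 96 for the step to 5-7 h. No other probe sets were changed there, out of 35470, while 22.0% and 18.0% were called in the data for these comparisons. A Benjamini-Hochberg adjustment depends on the share changed, so this recovery does not give the sensitivity of the tests here. Alternatives in scaling, filter, lower bound, probe set, samples and a replicate block are given in the closing part.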

Additional observations from a re-analysis of the deposited data

Results flagged for a closer look

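For 2 genes the change at 5 min differed between stigma and ovary by a test of the difference itself. For ARF15 the stigma change exceeded the ovary change by 2.49 on the log2 scale (SE 0.37, adjusted p = 0.00271). For ARF17 the difference was -1.06 on the log2 scale (SE 0.26, adjusted p = 0.047). The call of ARF15 held under all 22 alternatives, while that of ARF17 was lost under 15 of 22, with adjusted p-values up to 0.342.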

How the results depend on the processing

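Of 1966 values of single members under the alternatives, 1706 kept direction and call, 260 kept direction but lost the call and 0 reversed. Shares over all tested probe sets were taken only under the alternative scalings. The other counts of called members below therefore do not compare members with other genes. Centring on array medians gave 3 members called in 5 min ovaries, 1 for the difference between the 5 min changes, 17 between 5 min tissues, 1 at 15-25 min and 0 at 40-50 min. Scaling on bright probe sets gave 11 called in 5 min stigmas and 1 for the difference. Quantile normalization, no filter and no lower bound each gave 1 for the difference, and no filter or a bound at the 40th percentile gave 0 at 40-50 min. Fitting only the groups compared gave 3 in 5 min stigmas, 2 in 5 min ovaries, 1 for the difference, 20 between unpollinated tissues, 2 at 15-25 min and 0 at 40-50 min. That fit has fewer residual degrees of freedom. For the other changes the cause was not tested. Leaving out 1 array gave 5 to 17 in 5 min stigmas, 3 to 6 in 5 min ovaries, 1 to 2 for the difference, 26 to 30 and 22 to 27 between tissues before and at 5 min, 2 to 5 at 15-25 min, 0 to 2 at 40-50 min, 6 to 8 at 5-7 h, 0 to 0 between the first pistil stages and 15 to 18 for the last step. Where that left 1 array of 5 min stigma, it was assumed to vary like the other groups. The median of all tested probe sets shifted by 0.227 (bright) and -0.141 (median) in 5 min stigmas, by -0.19 (quantile), -0.317 (median) and -0.199 (bright) between unpollinated tissues, by -0.247 (quantile) and -0.406 (median) between 5 min tissues, by 0.179 (bright) for the difference and by 0.13 (median) for the last step. Choosing the dimmer probe set of genes with several kept 102 of 109 values called. Replicate numbers did not pair the arrays in general: of 57 pairs of same-numbered arrays 22 correlated above 0.1 (-0.259 to 0.425, median 0.0483). All pairs did so in 1 of 15 pairs of groups that share 3 numbers, unpollinated ovary with 40-50 min pistil (0.133 to 0.173), and in 3 of 6 that share 2, those of 5 min stigma with unpollinated ovary, 15-25 min pistil and 5-7 h pistil. With the block 3 members were called at 40-50 min, ARF4 being added. With the number as a replicate block 115 of 117 member calls were kept, ARF14 (-0.49) between unpollinated tissues and IAA23 (0.79) between 5 min tissues being lost, and 18 members were called in 5 min stigmas and 20 for the last step.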
